A study of Mus musculus with 4 samples.

Results

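The 10 genes described here encode noncollagen proteins of bone matrix and a few proteins tied to it. They are the SIBLING family members Ibsp, Spp1, Dmp1 and Mepe, the peptidase gene Phex, the osteocalcin genes Bglap, Bglap2 and Bglap3, the osteoblast membrane protein gene Ifitm5 and the osteonectin gene Sparc. They were matched by gene symbol to rows of both expression tables, and all 10 were found among the 24319 entries used. The values come from 4 libraries of polyadenylated RNA from primary mesenchymal stem cells of mouse bone marrow, plastic-adherent marrow cells able to form bone, cartilage or fat. The groups were cells labelled wild type (WT) in control condition, cells labelled KDM4B KO (the series names them Kdm4b-/-) in control condition, WT cells under osteogenic induction and KDM4B KO cells under osteogenic induction. All were cultured for 4 days, and each group held 1 library. KDM4B is a histone demethylase. The strain, sex and age of the animals, how Kdm4b was deleted and how many animals gave the cells of a library are not stated in the labels.

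Bone matrix is mostly type I collagen, into which osteoblasts secrete acidic, phosphorylated and calcium-binding proteins before mineral is laid down. SIBLING proteins are flexible, heavily phosphorylated molecules that bind hydroxyapatite and, through an integrin-binding motif, cells. Bone sialoprotein promotes mineral nucleation, osteopontin restrains crystal growth, and DMP1 and MEPE are made mainly by osteocytes, the cells embedded in bone. Osteocalcin is a vitamin K-dependent protein made by mature osteoblasts, and in cultures of such cells its gene is usually a late marker.

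The unit was FPKM, a fragment count scaled to transcript length and to the mapped fragments of a library, so levels of different genes can be set side by side. Differences are log2 ratios of FPKM + 1, on which low genes differ less than on plain FPKM. The counting limit for higher or lower genes was a ratio of 1 in size, a 2-fold difference, with a level of 1 FPKM or more in either library of the pair. With 1 library per group there was no replicate check, no test and no error on any value. Ratios of induction to control set values of 2 separate tables side by side.

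The libraries showed features that touch every result below. Kdm4b itself was at 4.60 FPKM in control WT, 4.30 FPKM in control KO, 5.83 FPKM in induced WT and 4.26 FPKM in induced KO, so both WT values lay above both KO values by little, with log2 ratios of KO to WT of -0.08 and -0.38. Its transcript was present in the KO libraries, and WT and KO below always mean libraries as labelled. Xist, the RNA of the inactive X chromosome, was at 21.6 to 30.5 FPKM in 3 libraries but only 0.0621 FPKM in induced WT, which alone held the Y-linked Ddx3y above 0.0208 FPKM, at 28.7 FPKM. Genotype and sex of the animal therefore cannot be told apart in the induced pair, nor medium and sex in the WT pair. All 10 macrophage markers examined were above 1 FPKM in every library, with a summed level of 8934 to 12146 FPKM against 183 to 282 FPKM for 8 marrow stromal markers, in cells labelled as mesenchymal stem cells. Without Cxcl12, the sums of the other 7 stromal markers were 71.3 FPKM in control WT, 120 FPKM in control KO, 163 FPKM in induced WT and 112 FPKM in induced KO. With induction in WT, 4 of the 8 were higher and 2 lower, against 7.22% and 7.95% of all entries. Of 6 osteoblast markers outside the 10 genes, all 6 reached 1 FPKM in every library, with a summed level of 1951 FPKM in induced WT and 533 to 849 FPKM in the others. The collagen genes Col1a1 and Col1a2 made up most of this sum in every library. Runx2, Sp7, Alpl and Dlx5 were also highest in induced WT. Unlike the sum, each of them was lower in induced KO than in control KO. The summed level of 6 adipocyte markers was 434 FPKM in induced WT and 700.1 to 853 FPKM in the others. Fabp4 and Lpl made up most of this sum in every library, whereas Adipoq was at 1.17 to 6.24 FPKM and Plin1 at most at 0.403 FPKM. Of 5 markers of other blood cells 0 reached 1 FPKM. The part of these cell types in the results was not tested. Steps among low FPKM values put the depth, as a share of that of control WT, at 0.871 for control KO, 0.802 for induced WT and 1.09 for induced KO, while the depth itself is unknown. These figures are rough, as they rest on 79 of 1362, 31 of 1110 and 95 of 1485 low entries in that order. In bulk RNA, fewer cells of a type and less RNA per cell cannot be told apart.

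The 10 genes covered almost the whole range of expression. Spp1 and Sparc were among the most abundant transcripts of every library, Ibsp, Dmp1, Bglap and Bglap2 reached 1 FPKM in at least 1 library, and Mepe, Phex, Bglap3 and Ifitm5 stayed below 1 FPKM in all 4. The summed level of the 10 was 3791 and 3736 FPKM in control WT and control KO, 7533 FPKM in induced WT and 2307 FPKM in induced KO, and Spp1 made up most of it. The induced WT library held the highest value of Ibsp, Spp1, Dmp1, Phex, Ifitm5 and Sparc, and the lowest value of Bglap and Bglap2.

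**Figure D1:**
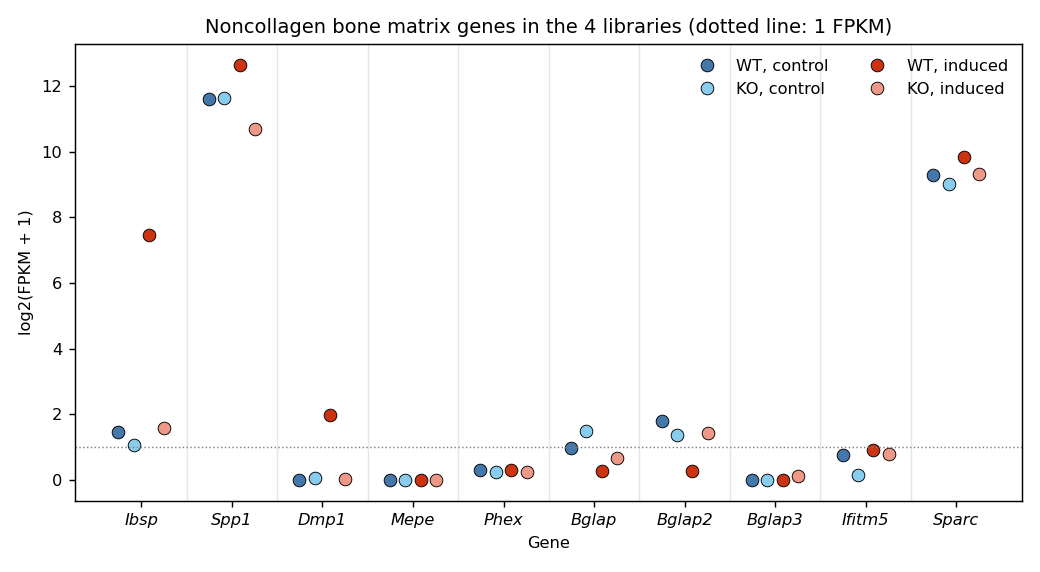
Level of each of the 10 genes as log2(FPKM + 1) in the 4 libraries, 1 point per library, with a dotted line at 1 FPKM. Ibsp and Dmp1 stand out in the induced WT library (177 and 2.99 FPKM), Bglap and Bglap2 are lowest there, and Sparc lies between 521 and 910 FPKM.

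Ibsp encodes bone sialoprotein, a protein of newly mineralising matrix. It was at 1.74 FPKM in control WT, 1.11 FPKM in control KO, 177 FPKM in induced WT and 1.98 FPKM in induced KO. The induced WT library was far above the other 3, which differed among themselves by at most 0.50 on the log2 scale. On plain FPKM, induced WT was 89.1-fold above induced KO and 102-fold above control WT. The log2 ratio of KO to WT was -0.38 in control medium and -5.90 under induction, the latter the 12th lowest of 11936 entries. Induction against control gave 6.02 in WT, the 14th highest of 12094 entries, and 0.50 in KO. In the order of all entries by level, Ibsp stood at rank 434 in induced WT and between rank 10271 and rank 11323 in the other libraries.

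Dmp1, which encodes dentin matrix protein 1, a regulator of mineralisation and of phosphate handling by osteocytes, had the same pattern at a much lower level. It was listed at 0 in control WT and was at 0.0440 FPKM in control KO, 2.99 FPKM in induced WT and 0.0130 FPKM in induced KO. Only the induced WT library lay above the level at which genes were counted, so Dmp1 entered the count solely through the library in which it was high. The log2 ratio of KO to WT was -1.98 under induction, and that of induction to control was 1.99 in WT and -0.04 in KO.

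Spp1 encodes osteopontin, which osteoblasts, osteoclasts and macrophages all secrete. It was at 3152 FPKM in control WT, 3210 FPKM in control KO, 6442 FPKM in induced WT and 1658 FPKM in induced KO. The control libraries were nearly level, with a log2 ratio of KO to WT of 0.03, while the induced libraries lay on either side of them, with a ratio of -1.96. After the libraries were rescaled to equal sums without small RNA genes and Rn45s, the ribosomal RNA precursor, these ratios were 0.26 and -2.21. Induction against control gave 1.03 in WT and -0.95 in KO, just short of the counting limit. The same rescaling carried the KO value past the limit, to -1.14, and moved the median of all entries from -0.04 to -0.20. In the order used above, Spp1 was the 12th, 10th, 8th and 44th most abundant entry, and it held 0.449%, 0.549%, 1.15% and 0.242% of the summed FPKM.

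The cells that made Spp1 were not identified. The summed level of the 10 macrophage markers was 12146 FPKM in control WT, 11016 FPKM in control KO, 8934 FPKM in induced WT and 10347 FPKM in induced KO, so it was lowest where Spp1 was highest. Lyz2, the lysozyme gene of macrophages, made up most of it, and the sums of the other 9 were 4209, 4101, 2171 and 3613 FPKM. Single markers went both ways: Cd14 was lowest in induced WT, at 37.8 FPKM, whereas Mrc1, the mannose receptor gene, was highest there, at 266 FPKM against 63.6 FPKM in control WT (log2 ratio 2.04). Between the induced libraries, 1 of the 10, Cd14 (log2 ratio of KO to WT 2.46), was higher in KO and 0 were lower. Among all entries 5.27% were higher and 5.4% lower. Tyrobp (0.999) and Mrc1 (-0.946) were just short of the limit on opposite sides. The summed level of 8 osteoclast markers was 93.7, 110.0, 95.6 and 63.1 FPKM in the same order of libraries, lowest where Spp1 was lowest. The drop came mostly from the proton pump gene Atp6v0d2 (59.8 FPKM in induced WT and 31.1 FPKM in induced KO), and the sums of the other 7 were 41.9, 36.9, 35.8 and 32.0 FPKM. Other osteoclast genes had other orders, with Acp5 lowest in control KO (0.998 FPKM) and Dcstamp in induced WT (0.0526 FPKM), and Calcr, the calcitonin receptor gene, was listed at 0 in all 4 libraries. Their part in the Spp1 values was not tested.

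Mepe, which encodes an osteocyte phosphoglycoprotein, was listed at 0 in all 4 libraries. Phex, whose product is a membrane peptidase that cleaves SIBLING-derived peptides, was at 0.226 FPKM in control WT, 0.185 FPKM in control KO, 0.240 FPKM in induced WT and 0.175 FPKM in induced KO. Its 4 values lay close together, with the WT libraries above the KO libraries in both media. Dspp, the remaining gene of the family and mainly a tooth gene, was listed at 0 in 3 libraries and at 0.00927 FPKM in induced WT. The osteocyte gene Sost was listed at 0 throughout, and Fgf23 was at 0.0141 FPKM in induced KO and listed at 0 elsewhere, while Pdpn, an early osteocyte gene that other cells also express, was at 15.1 to 34.1 FPKM.

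The genes of the family lie next to each other on mouse chromosome 5. Of the genes beside them, Pkd2 had the order of Spp1 over the 4 libraries and Sparcl1 did not. In the gene order of the RefSeq annotation of GRCm38.p6, Sparcl1 is followed by Dspp, Dmp1, Ibsp, Mepe, Spp1 and Pkd2. Mepe, between Ibsp and Spp1, was listed at 0 in the library in which both were highest. Pkd2, which encodes the cation channel polycystin-2, was at 15.9 FPKM in control WT, 21.5 FPKM in control KO, 36.6 FPKM in induced WT and 14.8 FPKM in induced KO. Its log2 ratio of KO to WT under induction was -1.26, and that of induction to control in WT was 1.16. For Spp1, the gene next to it, these ratios were -1.96 and 1.03. Sparcl1, a matrix protein gene related to Sparc, was below 1 FPKM in all 4 libraries and lowest in induced WT, at 0.0523 FPKM. These neighbours were looked at after the values of the family had been seen.

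**Figure D2:**
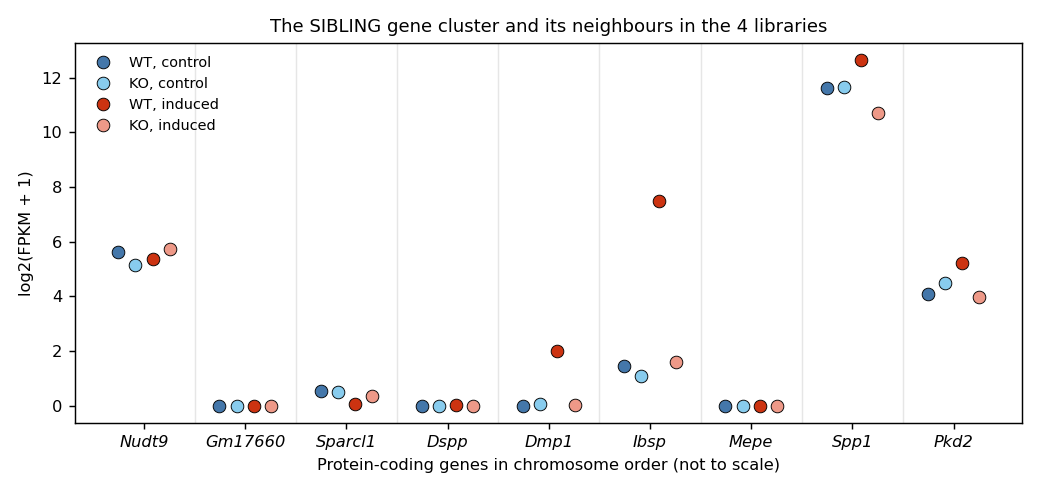
Level as log2(FPKM + 1) of the SIBLING genes and the protein-coding genes beside them, in chromosome order and not to scale, 1 point per library. Dmp1, Ibsp, Spp1 and Pkd2 are highest in the induced WT library, Mepe is listed at 0 throughout, and Nudt9 and Sparcl1 do not have that order.

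The promoters of the 3 family genes with the highest values in induced WT are printed because these genes were high in the same library. Sequences are from RefSeq, build GRCm38.p6, plus strand, and run from 250 bases before the outermost annotated start to 30 bases after it. Capitals mark matches to the Runx core TGTGGT (on the opposite strand ACCACA) or the glucocorticoid receptor hexamer AGAACA (on the opposite strand TGTTCT). The motif searches also covered the homeodomain core TAATTA and the AP-1 motif TGANTCA, both strands of each, and no matches overlapped in these windows.
Ibsp promoter (chr5:104299037-104299316, plus strand): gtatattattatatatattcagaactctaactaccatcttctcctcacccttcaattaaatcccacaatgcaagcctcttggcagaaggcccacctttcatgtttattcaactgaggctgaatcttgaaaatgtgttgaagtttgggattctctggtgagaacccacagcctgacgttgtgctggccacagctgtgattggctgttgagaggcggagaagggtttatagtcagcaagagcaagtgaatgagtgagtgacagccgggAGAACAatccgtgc
Dmp1 promoter (chr5:104197325-104197604, plus strand): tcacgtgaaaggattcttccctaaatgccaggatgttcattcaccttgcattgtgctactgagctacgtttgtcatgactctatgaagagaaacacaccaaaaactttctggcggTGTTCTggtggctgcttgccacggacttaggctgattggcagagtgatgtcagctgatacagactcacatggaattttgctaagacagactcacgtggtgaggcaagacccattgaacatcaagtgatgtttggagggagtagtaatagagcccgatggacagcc
Spp1 promoter (chr5:104434861-104435140, plus strand): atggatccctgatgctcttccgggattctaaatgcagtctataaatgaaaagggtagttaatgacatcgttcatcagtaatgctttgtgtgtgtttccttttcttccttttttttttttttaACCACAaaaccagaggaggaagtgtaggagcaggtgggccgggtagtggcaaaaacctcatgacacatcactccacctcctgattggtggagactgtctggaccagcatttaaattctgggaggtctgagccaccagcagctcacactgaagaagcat
In these windows Spp1 held 1 Runx core at -128 from the start, Dmp1 1 glucocorticoid receptor hexamer at -135 and Ibsp 1 at position 17 after the start. Promoter windows were at hand for 9 of the 10 genes, all but Bglap2, and here the windows reached 50 bases past the start. Of the 13 windows of these genes, only that at the outermost start of each gene was counted. The Runx core was found in 4 of the 9 (Spp1, Mepe, Bglap and Sparc), against 16.7% of 32544 promoter windows. The glucocorticoid receptor hexamer was found in 4 of 9 (Ibsp, Dmp1, Bglap and Sparc), against 18.9%, the homeodomain core in 1 of 9 (Mepe), against 5.29%, and the AP-1 motif in 0 of 9, against 7.79%. The 32544 windows also took in those at other starts, so the shares are not fully alike. Among the windows left out, that of Dmp1 held a Runx core and that of Spp1 a homeodomain core. Bglap3 held a homeodomain core and a glucocorticoid receptor hexamer in such a window. A match describes letters in a window and not a site in use. Mepe, with 2 Runx cores, was listed at 0 in every library, and Ibsp, with none in this window, was at 177 FPKM in induced WT. A link between motifs and levels was not tested.

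Osteocalcin, the vitamin K-dependent calcium-binding protein of bone, is encoded in the mouse by Bglap and Bglap2, and Bglap3 is a related gene beside them on chromosome 3. Bglap was at 0.987 FPKM in control WT, 1.82 FPKM in control KO, 0.217 FPKM in induced WT and 0.577 FPKM in induced KO. Bglap2 was at 2.50 FPKM in control WT, 1.59 FPKM in control KO, 0.216 FPKM in induced WT and 1.71 FPKM in induced KO. Both were lowest in induced WT, the library in which Ibsp, Dmp1 and Spp1 were highest. Bglap3 was listed at 0 in 3 libraries and at 0.0786 FPKM in induced KO. Pmf1, the gene next to Bglap, was also lowest in induced WT, at 12.9 FPKM against 21.6 to 32.1 FPKM elsewhere. Its log2 ratio was -1.26 for induction in WT and 0.89 for KO to WT under induction. The other neighbours examined, Smg5, Paqr6 and Slc25a44, were not lowest there.

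The coding sequences of the 3 genes are nearly identical, so how reads were shared among them can affect the single values, those of Bglap and Bglap2 most. In the GENCODE M21 transcripts (build GRCm38) the coding sequences are 285 bases long without the stop codon, and Bglap and Bglap2 are identical at 281 of the 285 positions, Bglap2 and Bglap3 at 276 and Bglap and Bglap3 at 272. Of all stretches of 50 bases, 74.7% of those of Bglap and 88.2% of those of Bglap2 also occur in another of the 3 transcripts, against 24.0% of those of Bglap3. The stretch of coding positions 184 to 273, which holds 7 of the 13 differing positions, is shown to make this visible, with the positions that differ among the 3 in capitals.
Bglap: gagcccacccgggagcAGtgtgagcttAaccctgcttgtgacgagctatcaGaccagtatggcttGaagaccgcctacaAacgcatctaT
Bglap2: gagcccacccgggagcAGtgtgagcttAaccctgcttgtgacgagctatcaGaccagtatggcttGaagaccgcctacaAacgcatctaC
Bglap3: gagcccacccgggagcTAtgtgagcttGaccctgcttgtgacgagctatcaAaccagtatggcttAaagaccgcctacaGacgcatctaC
Within this stretch Bglap and Bglap2 differ at 1 position, and Bglap2 and Bglap3 at 6. The summed level of the 3 genes is less affected by such sharing. It was 3.49 FPKM in control WT, 3.41 FPKM in control KO, 0.433 FPKM in induced WT and 2.36 FPKM in induced KO. The control libraries were thus level in the sum (log2 ratio of KO to WT -0.02), although Bglap (0.51) and Bglap2 (-0.44) went opposite ways there. Under induction the sum had a log2 ratio of KO to WT of 1.23, with Bglap2 at 1.16 and Bglap, below 1 FPKM in both libraries, at 0.37. Induction against control gave -1.65 for the sum in WT and -0.39 in KO. All these levels are low, a few FPKM at most.

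Ifitm5, which encodes the osteoblast membrane protein BRIL, was at 0.706 FPKM in control WT, 0.107 FPKM in control KO, 0.875 FPKM in induced WT and 0.738 FPKM in induced KO. The control KO library was the low one, and the other 3 lay within a narrow range. Since Ifitm5 stayed below 1 FPKM in every library, it was not counted in any comparison.

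Sparc, the gene of osteonectin, a collagen- and calcium-binding glycoprotein made by many stromal cells, was at 632 FPKM in control WT, 521 FPKM in control KO, 910 FPKM in induced WT and 644 FPKM in induced KO. Its highest value was 1.75 times its lowest. The KO library was below the WT library in both media, with log2 ratios of -0.28 in control medium and -0.50 under induction, and induction was above control in both genotypes, with 0.52 in WT and 0.31 in KO. After the rescaling to equal sums these 4 ratios kept their signs but moved to -0.04, -0.75, 0.83 and 0.12. Sparc did not reach the counting limit in any comparison.

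In the comparison of KO with WT in control medium, 5 of the 10 genes reached 1 FPKM, and 0 were higher and 0 lower. Among all 11845 entries compared, 0.929% were higher and 1.47% lower. Under induction 3 of the 10 were lower in KO (Ibsp, Dmp1 and Spp1), 1 was higher (Bglap2), Sparc was within the limit, and the other 5 did not reach 1 FPKM. Dmp1 and Bglap2 were below 1 FPKM in the lower library of this pair, so each was counted through 1 library. The shares among 11936 entries were 5.4% lower and 5.27% higher. In the comparison of induction with control in WT, the same 3 genes were higher and Bglap2 (log2 ratio -1.53) was lower, against 7.22% higher and 7.95% lower among all 12094 entries. In KO, 0 of the 10 were higher and 0 lower, against 1.54% and 1.07% of 11748 entries. These comparisons share libraries, so the KO difference under induction and the induction difference in WT both rest on the induced WT library.

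With the induced WT library left out and induced KO set against control WT instead, 0 of the 10 genes were higher and 0 lower, against 1.43% and 1.4% of 11789 entries. The log2 ratios were then 0.12 for Ibsp, -0.93 for Spp1, 0.02 for Dmp1, -0.37 for Bglap2 and 0.02 for Sparc. This pair differs in both medium and label. The difference between the log2 ratios of KO to WT in the 2 media was at least 1 in size for 4 genes, namely Ibsp (-5.52), Dmp1 (-2.04), Spp1 (-1.98) and Bglap2 (1.59), and for 25.0% of 12294 entries with at least 1 FPKM in a library.

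**Figure D3:**
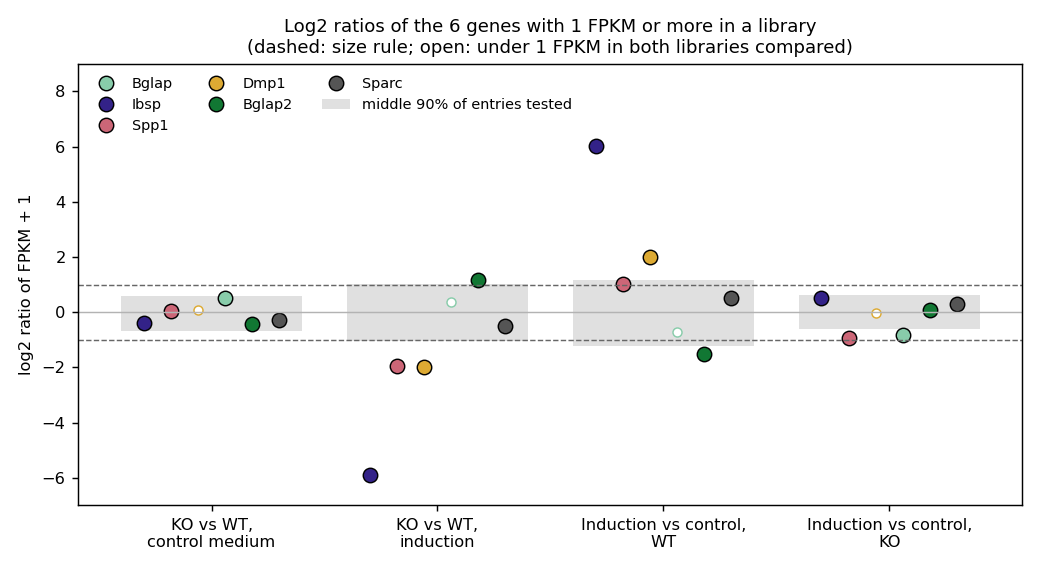
Log2 ratios of FPKM + 1 of the 6 genes that reached 1 FPKM in a library, for the 4 comparisons, with grey bars for the middle 90% of all entries compared, dashed lines at the counting limit and open points for genes below 1 FPKM in both libraries. Ibsp lies at -5.90 and 6.02 in the comparisons that hold the induced WT library, with Dmp1 and Spp1 on its side and Bglap2 opposite.

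A list of 20 further matrix proteins held genes lower in KO under induction as well. Of the 20, 13 reached 1 FPKM, 8 were lower and 0 higher, against 5.4% lower and 5.27% higher among all entries, and the median log2 ratio of the 13 was -1.25 against -0.02. Spock2 among the 8 was counted through induced WT alone (1.36 FPKM, and at most 0.130 FPKM in the other libraries). Fn1, the gene of the adhesive glycoprotein fibronectin, was at 370 FPKM in control WT, 501 FPKM in control KO, 846 FPKM in induced WT and 298 FPKM in induced KO (-1.50 for KO to WT under induction). Postn, which encodes the collagen-associated protein periostin, was at 75.8, 131, 883 and 190.2 FPKM in the same order (-2.21). Thbs1, the gene of thrombospondin-1, had -1.96, and Omd, which encodes the bone keratan sulfate proteoglycan osteomodulin, -1.97. In these genes the induced WT library was the highest of the 4. In control medium 0 were higher in KO and 1, Ecm1 (-1.01), was lower, against 0.929% and 1.47% of all entries, whereas after the rescaling to equal sums 2 were higher and 0 lower. Among all 11818 entries that rescaling gave 210 higher and 116 lower.

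Mgp, the gene of matrix Gla protein, a vitamin K-dependent inhibitor of calcification, did not follow that order. It was at 834 FPKM in control WT, 1275 FPKM in control KO, 1679 FPKM in induced WT and 2654 FPKM in induced KO. Both KO libraries lay above the WT library of their medium (0.61 and 0.66), and both induced libraries lay above the control library of their label (1.01 and 1.06). With the libraries rescaled to equal sums without small RNA genes, 0 of the 20 genes, Mgp included, passed the limit for induction in KO. Among all 11779 entries 135 were then higher and 215 lower.

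Type I collagen, the fibre to which many of these proteins bind, was lower in induced KO in 1 of its 2 chains by the counting limit. Col1a2 was at 280 FPKM in control WT, 303 FPKM in control KO, 1073 FPKM in induced WT and 359 FPKM in induced KO (-1.58 for KO to WT under induction), and Col1a1 had -0.81. Of 4 type I and V chains, 3 were higher with induction in WT and 0 in KO, against 7.22% and 1.54% of all entries. The median log2 ratio of KO to WT over the 4 was 0.15 in control medium and -0.90 under induction. After the rescaling to equal sums, all 4 chains were lower in KO under induction. That rescaling also left 1172 of 11979 entries lower and 407 higher, with a median log2 ratio of -0.25.

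Of 10 genes of mineralisation, 8 reached 1 FPKM under induction, and 4 were lower in KO and 0 higher, against 5.4% and 5.27% of all entries. Enpp1, whose product makes pyrophosphate, an inhibitor of mineral growth, had a log2 ratio of -1.87, and Ank, a transport protein needed for pyrophosphate outside the cell, had -1.74. Alpl, the alkaline phosphatase that degrades pyrophosphate, had -1.58, and the phosphate transporter gene Slc20a1 -1.11. Genes acting for and against mineral growth were thus lower in the same library. In control medium 0 of the 10 passed the limit, where only 0.929% of all entries were higher and 1.47% lower. Enpp1 was at 0.65 there and Pdpn, the podoplanin gene of early osteocytes, at -0.44.

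Genes that modify or cleave the matrix proteins went both ways under induction, with 3 of 10 higher in KO and 2 lower, against 5.27% and 5.4% of all entries. Fam20c encodes the secretory pathway kinase that phosphorylates SIBLING proteins. It was at 110 FPKM in control WT, 104 FPKM in control KO, 15.7 FPKM in induced WT and 52.0 FPKM in induced KO, a log2 ratio of KO to WT of 1.67 under induction. The induced WT library, highest for Ibsp, was thus lowest for Fam20c. Tgm2, a transglutaminase that crosslinks osteopontin, had 1.39 and the protease gene Mmp3, counted through induced KO alone (3.07 FPKM, and below 1 FPKM in induced WT), had 1.79. The collagenase gene Mmp13 was at 16.7, 28.9, 107 and 10.5 FPKM in the same order (-3.23), and the pseudokinase gene Fam20a, whose product activates FAM20C, had -1.11. Ggcx and Vkorc1, which serve the vitamin K-dependent carboxylation of osteocalcin and matrix Gla protein, had -0.31 and 0.58. In control medium 0 of the 10 passed the limit, where only 0.929% of all entries were higher and 1.47% lower.

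Of 11 receptor genes of the matrix proteins, 9 reached 1 FPKM, and 1 was lower in KO under induction, Itgav (-1.20), whose integrin chain binds osteopontin and bone sialoprotein. The shares among all entries were 5.4% lower and 5.27% higher. Of the 11, 0 were higher, and 2 were lower after the rescaling to equal sums, against 1172 of 11979 entries lower under that rescaling. Its partner chains Itgb3 (-0.86) and Itgb5 (0.21) were within the limit, and so was Cd44 (-0.18), another osteopontin receptor. Stab1, a scavenger receptor of macrophages that takes up SPARC, was at 85.9 FPKM in control WT, 106 FPKM in control KO, 241 FPKM in induced WT and 219 FPKM in induced KO. Both induced libraries lay above both control libraries, with log2 ratios of 1.48 in WT and 1.04 in KO, and the KO value was short of the limit after the rescaling to equal sums.

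Among 11 regulators of matrix genes, 3 were lower in KO under induction, 4 after the rescaling, and 1 was higher under both, against 5.4% lower and 5.27% higher among all entries as deposited. With the rescaling, 1172 of 11979 entries were lower and 407 higher. Sp7, the osteoblast transcription factor osterix, was at 2.11 FPKM in control WT, 3.40 FPKM in control KO, 8.46 FPKM in induced WT and 1.18 FPKM in induced KO (-2.12). The homeobox genes Dlx6 and Dlx5 had -1.89 and -1.42. Dlx6 was counted through induced WT alone (3.18 FPKM, and at most 0.408 FPKM in the other libraries). Msx2, a homeobox factor of early osteoblasts, was at 6.61, 3.04, 0.866 and 3.64 FPKM in the same order of libraries (1.32), and was thus counted through induced KO alone. Runx2, which binds the Runx core, had -0.98, just short of the limit. In control medium 0 of the 11 passed it, where only 0.929% of all entries were higher and 1.47% lower. Sp7 was at 0.50 there and Msx2 at -0.92. With induction in KO, 1 of the 11 was lower, Sp7 (-1.02), and 0 were higher, against 1.07% and 1.54% of all 11748 entries. Sp7 came short of the limit after median-ratio scaling.

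**Figure D4:**
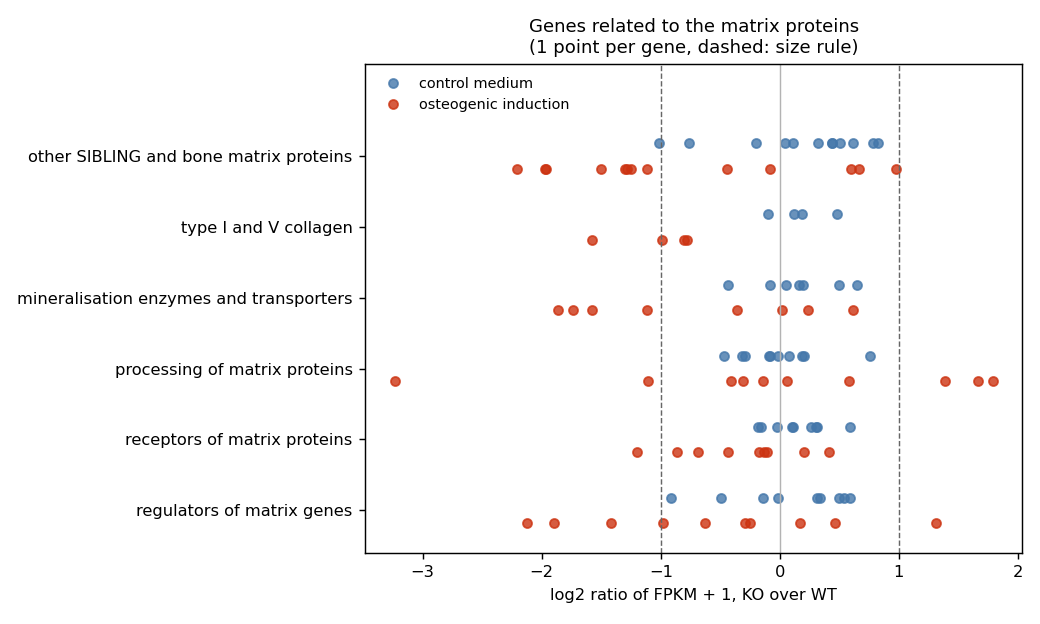
Log2 ratios of FPKM + 1, KO over WT, of genes related to the matrix proteins that reached 1 FPKM, in control medium (blue) and under induction (red), 1 point per gene, with dashed lines at the counting limit. Under induction 8 of 20 further matrix genes and 4 of 10 mineralisation genes lie below the lower limit, and in control medium 1 and 0 do. Among all entries 5.4% were lower under induction and 1.47% in control medium.

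With induced KO set against control WT, 3 of the 20 further matrix genes were higher (Mgp, Postn and Smoc1), and so were 1 of 4 collagens (Col1a1), 1 of 10 mineralisation genes (Smpd3) and 1 of 11 receptors (Stab1), against 1.43% of all entries. Smpd3 was counted through induced KO alone (2.69 FPKM, and 0.448 FPKM in control WT). The 1 lower gene was Fam20c among the 10 processing genes, against 1.4% of all entries, and 0 of the 11 regulators passed the limit. Postn was thus lower in induced KO than in induced WT but higher there than in control WT.

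The genes whose patterns were most like those of the matrix genes were found by the distance between centred log2(FPKM + 1) values over the 4 libraries, among 8755 entries with at least 5 FPKM in a library. Closest to Ibsp were the Y-linked Eif2s3y (distance 0.76) and Ddx3y (1.13), followed by the ephrin receptor gene Epha3 (1.59) and Cd38 (1.66), which encodes a surface enzyme that consumes NAD. All 4 were at or below 0.418 FPKM in every library but induced WT. Closest to Spp1 were Alpl (0.28), the insulin receptor substrate gene Irs1 (0.28), Sh3bp4 (0.38) and Ank (0.41). Alpl was at 8.90 FPKM in control WT, 8.33 FPKM in control KO, 15.7 FPKM in induced WT and 4.58 FPKM in induced KO, the order of Spp1 but for the control pair. Closest to Bglap2 were Trem2 (0.05), a receptor of macrophages and osteoclasts, the kinesin gene Kif22 (0.08), the helix-loop-helix inhibitor gene Id3 (0.10) and the cyclin gene Ccnf (0.11). Closest to Sparc were Unc119b (0.06), the nucleotide synthesis gene Ctps (0.07), Synj2bp-cox16 (0.07) and B4galt2 (0.08). Such distances over 4 libraries describe likeness of pattern and no more.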

How the data were processed

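RNA was measured in 4 libraries, 1 per group, so no test or paired comparison was made. The deposited values were FPKM, per the file headers, in 2 tables. The authors used TopHat and Cufflinks with build mm9, per the submitters' processing notes. Tool versions, annotation, strand use, filters and any normalization between tables are not given in the sources used here. Libraries were matched to columns by the column names, which equal the sample titles.

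Of 24346 entries per table, 27 with a date in place of a symbol were left out. Log2 ratios of FPKM + 1 were computed with Python 3.11.15 and pandas 2.3.3, and counted at a size of 1 where either library of a pair held 1 FPKM or more. Read totals were not used, so depth is unknown. Alternatives were pseudocounts of 0.1 and 5, no filter, a filter of 5 FPKM, 2 rescalings, and the control library labelled WT in place of the induced one. Promoters came from RefSeq (GRCm38.p6), and transcripts from GENCODE M21 were aligned with Biopython 1.88. Neither is the authors' build, and gene coordinates from it were not joined to the values.

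The 10 genes, the lists and the tests were chosen with earlier results of these data known. 1 member of the regulator list is not reported here. The naming rule took the 10 genes, from each list up to 4 genes each way past the limit (otherwise the 2 with the largest ratios), and the 4 genes nearest in pattern to Ibsp, Spp1, Sparc and Bglap2. Other list genes and the neighbours on the chromosome were named after their values were seen.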

Additional observations from a re-analysis of the deposited data

Results flagged for a closer look

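Spp1 and Bglap2 had log2 ratios of KO to WT of opposite sign in the 2 media. The ratio under induction minus that in control medium was -1.98 for Spp1 (0.03 in control medium and -1.96 under induction) and 1.59 for Bglap2 (-0.44 and 1.16). With 1 library per group the difference was not tested. The control ratios were small, and the induced pair also differed in Xist and Ddx3y. Bglap2 was at only 0.216 FPKM in induced WT, and its single values depend on how reads were shared with Bglap (0.51 in control medium). The sum of the osteocalcin genes had -0.02 in control medium and 1.23 under induction.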

How the results depend on the processing

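No paired analysis was possible because each group held 1 library, and no replicate could be left out. Of 225 log2 ratios recomputed under the alternatives, 211 kept their side of the counting limit, 12 were no longer past it and 2 newly passed it. The sign changed in 7 of the 225. These totals include ratios whose outcome was fixed in advance. Dropping the filter or raising it to 5 FPKM leaves each ratio as it was, so no sign could change there. A 2-fold ratio of FPKM + 1 already needs 1 FPKM, so without the filter no ratio could change sides either. With the control library labelled WT in place of the induced one, KO against WT under induction went from 1 gene higher and 3 lower to 0 higher and 0 lower, and 6 genes changed sign, Ibsp (0.12), Dmp1 (0.019), Bglap2 (-0.37) and, within the limit in both, Bglap (-0.33), Ifitm5 (0.027) and Sparc (0.025). The other sign change was Bglap2 for induction in KO, from 0.066 to -0.048 after the rescaling described below. With a pseudocount of 5 or a filter of 5 FPKM, the 1 gene higher in KO under induction and the 1 gene lower with induction in WT (Bglap2) became 0 and 0, the 3 lower in KO under induction and the 3 higher with induction in WT became 2 and 2 without Dmp1 (-0.67 and 0.68 at the pseudocount of 5), and genes whose KO difference varied by at least 1 between media went from 4 to 2. A pseudocount of 0.1 (Bglap, -1.51) and the rescaling without small RNA genes and Rn45s (Spp1, -1.14) each gave 1 gene lower with induction in KO instead of 0. That rescaling moved the median of all entries from -0.02 to 0.19 for KO against WT in control medium, from -0.02 to -0.25 under induction, from -0.03 to 0.25 for induction in WT and from -0.04 to -0.20 in KO. The split of higher and lower entries went with it, from 110 and 174 to 210 and 116, from 629 and 644 to 407 and 1172, from 873 and 961 to 1520 and 595, and from 181 and 126 to 135 and 215. Values near 1 FPKM (Dmp1, Bglap, Bglap2) rest on few fragments at unknown depth.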
